A study of Homo sapiens with 12 samples.

Results

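The interferon-stimulated genes described here are 44 symbols of the deposited count tables, of 25369 genes listed. They are genes whose transcription is known to rise when a cell senses interferon or foreign nucleic acid, and the list was drawn up because BST2 had a very large fall in these data. The values that chose the list are therefore those of BST2 against the empty vector. Of the 44 genes, 40 passed the filter on low counts, which kept 16625 genes in all.

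The study measured mRNA by RNA sequencing in U2OS cells, a human osteosarcoma line, carrying a Tet-On system that switches on a stably inserted construct when doxycycline is added. It was designed to compare E2F1, a transcription factor of the cell cycle, with derivatives that lack arginines which are targets of methylation. The 4 lines were pTRE, with the empty vector; WT, with wild-type E2F1; R109K, with the arginine-to-lysine change of that name; and KK, with the R111/113K pair of changes. Each line gave 3 biological replicates. All 12 samples, pTRE included, were grown with G418 and hygromycin B and received 1 ug/ml doxycycline for 24 hours, and the E2F1 lines kept their own E2F1 gene. Each construct was studied in 1 stable line, so construct and line cannot be told apart, and whether a line was clonal is not stated. The 3 E2F1 lines were compared with the same 3 pTRE samples, so their comparisons with pTRE are not independent.

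Interferons are secreted proteins that bind receptors on the cell surface. The receptors activate the kinases JAK1, TYK2, and JAK2, which phosphorylate transcription factors of the STAT family. STAT2 and IRF9 are parts of a complex that binds the interferon-stimulated response element, while STAT dimers bind a shorter palindrome. The induced genes encode proteins that restrict viruses at the membrane, degrade or sequester foreign RNA, sense nucleic acids, or conjugate the ubiquitin-like protein ISG15. Most cells, including tumour lines, express a part of the set at a low level without added interferon.

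Levels are given as CPM, the reads of a gene scaled to a common library size. E2F1 itself, as the check of the constructs, lay between 82.9 and 101 CPM in pTRE, between 1469 and 2315 in WT, between 932 and 1283 in R109K, and between 1112 and 1478 in KK. The samples had from 11500537 to 31040903 reads on genes. Replicate 2 of WT stood apart, with 58.7% of its reads outside annotated genes, whereas the other 11 samples had between 23.6% and 29.6%. It remained in the analysis, and results that rest on it are given without it. Summed levels of cell type markers also differed between pTRE and the E2F1 lines. The summed level of 8 bone and mesenchymal markers, the lineage of the line itself, was between 6141 and 7403 CPM in pTRE and between 2173 and 3387 in the E2F1 lines, and that of 6 epithelial markers was between 786 and 975.3 against 371 to 668. The 7 blood cell markers summed to between 14.5 and 18.0 CPM in pTRE and to between 21.0 and 28.3 in the E2F1 lines. The 4 endothelial markers summed to between 2.24 and 3.04 in pTRE and to between 0.908 and 1.80 in the E2F1 lines. Such sums are weighted to the most abundant genes. The markers called in any line against pTRE were 3 of 8, 2 of 6, 1 of 7, and 1 of 4 in these lists. No marker was at 0 in all samples. Their part in the results was not tested. In bulk RNA, fewer cells expressing a gene and less RNA per cell cannot be told apart.

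The first sequences shown are upstream stretches of genes that passed the call in all 3 E2F1 lines, as far as they could be placed, since these genes were called whichever E2F1 line was compared. They come from the promoter table of RefSeq on GRCh38.p14 and were placed on GRCh37 by an exact match. Of the 44 genes, 34 had an entry and 33 could be placed once. Capitals mark matches, on either strand, to the core of the interferon-stimulated response element, searched as 2 GAAA blocks with any 2 bases between them, and to TTCNNNGAA, the STAT palindrome. For BST2, the 250 bases before the start lie at chr19:17516440-17516689 on the minus strand. Of these bases, 195 are in annotated exons of the genes BISPR and MVB12A. The first capital run holds TTCTGGGAA, 136 bases before the start, which overlaps a pair of overlapping response element cores at 130 and 124 bases. The second run is a STAT palindrome at 58 bases. For IFIT1, the printed part lies outside its annotated exons at chr10:91152130-91152302 on the plus strand, and for IFITM1 a site of 30 bases is given, at chr11:313990-314019 on the plus strand. The IFITM1 stretch lies inside the annotated gene, ending 3998 bases from its outermost start, and 43 of its 250 bases are in IFITM1 exons.
BST2: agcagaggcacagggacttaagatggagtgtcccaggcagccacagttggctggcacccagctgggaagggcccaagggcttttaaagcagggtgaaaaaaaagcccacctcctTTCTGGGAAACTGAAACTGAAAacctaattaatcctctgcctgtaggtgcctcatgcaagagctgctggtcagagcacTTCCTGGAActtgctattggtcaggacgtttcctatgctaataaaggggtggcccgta
IFIT1: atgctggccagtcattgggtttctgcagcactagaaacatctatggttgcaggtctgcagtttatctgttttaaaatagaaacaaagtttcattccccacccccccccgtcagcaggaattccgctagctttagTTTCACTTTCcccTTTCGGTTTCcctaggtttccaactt
IFITM1: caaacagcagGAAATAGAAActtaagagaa

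The response element core was found in 17 of the 34 upstream stretches, or 50%, whereas 3.02% of 35116 promoters in the table held it. It was present in 8 of the 11 stretches of genes called lower in at least 1 line, in 0 of 2 of genes called higher, and in 7 of 18 of tested genes with no call. The list holds genes picked as interferon-stimulated, whose known element this is, so its share beside all promoters is no test. The split by call uses the contrast with pTRE that chose the list, and nothing is read from it. The STAT palindrome was found in 8 of 34, or 23.5%, against 6.57% of all promoters. A search for 4 octamers of the E2F consensus (TTTCCCGC, TTTGGCGC, TTTCGCGC, and TTTGCCGC) gave 3 of 34, namely OAS3, RSAD2, and IFIH1, or 8.82% against 2.79% of all promoters. The stretch listed for RSAD2 holds 2 matches. It lies 751 to 1000 bases inside CMPK2, counted from the outermost annotated start of that gene, and contains the start sites of 2 of its 3 coding transcripts. It also contains start sites of RSAD2 transcripts, among them the coding RSAD2-208 and RSAD2-202. The coding transcript RSAD2-201 starts farther away, at position 7017908 of chromosome 2. Because CMPK2 was the member with the largest difference upward in each E2F1 line, both sites are shown in 30 bases, at chr2:7005883-7005912 and chr2:7005917-7005946 on the plus strand, with the octamer in capitals. CMPK2 is on the minus strand. The sites are not in the upstream stretch listed for CMPK2, which held no octamer. They lie 49 and 15 bases past the start of 1 coding transcript, 137 and 103 bases past that of another, and before that of the third. A match is a description of letters and not evidence of binding. UBE2L6 is not shown, as its stretch lies inside its annotated exons and held none of the motifs.
CMPK2 octamer A: gccaggcgccgGCGGGAAAcgaaacccgga
CMPK2 octamer B: gccaggcgccaGCGGGAAAcgaaagcgaag

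Against pTRE, a majority of the set lay lower in each E2F1 line, and CMPK2 stood out in the other direction. A gene was called at an adjusted p below 0.01 and a change of more than 2-fold in edgeR's quasi-likelihood test. Since the list was chosen on this contrast, no p is quoted for its genes here and nothing is read from the counts. In WT, 8 genes were called lower and 2 higher of the 40 tested, and the background over all 16625 genes was 3.93% lower and 7.89% higher. In KK, 7 were called lower and 2 higher, with 3.90% and 7.01% of all genes. In R109K, 9 were called lower and 1 higher, with 2.56% and 4.64%. The 10 calls in R109K came to 4 without R109K replicate 1 and to 6 without pTRE replicate 1, and tested against a 2-fold change with edgeR's glmTreat the calls numbered 2 for WT, 3 for KK, and 2 for R109K. BST2, IFIT1, IFITM1, and UBE2L6 were called lower in all 3 lines, where 1.79% of all genes were, and CMPK2 was called higher in all 3, where 4.02% of all genes were. The median log2 fold change of the 40 genes was -0.45 in WT, -0.35 in KK, and -0.40 in R109K, whereas the medians over all genes tested were 0.00, -0.01, and -0.00. The number of the 40 below 0 was 30, 29, and 30, and the shares of all genes below 0 were 49.9%, 50.8%, and 50.1%.

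**Figure D1:**
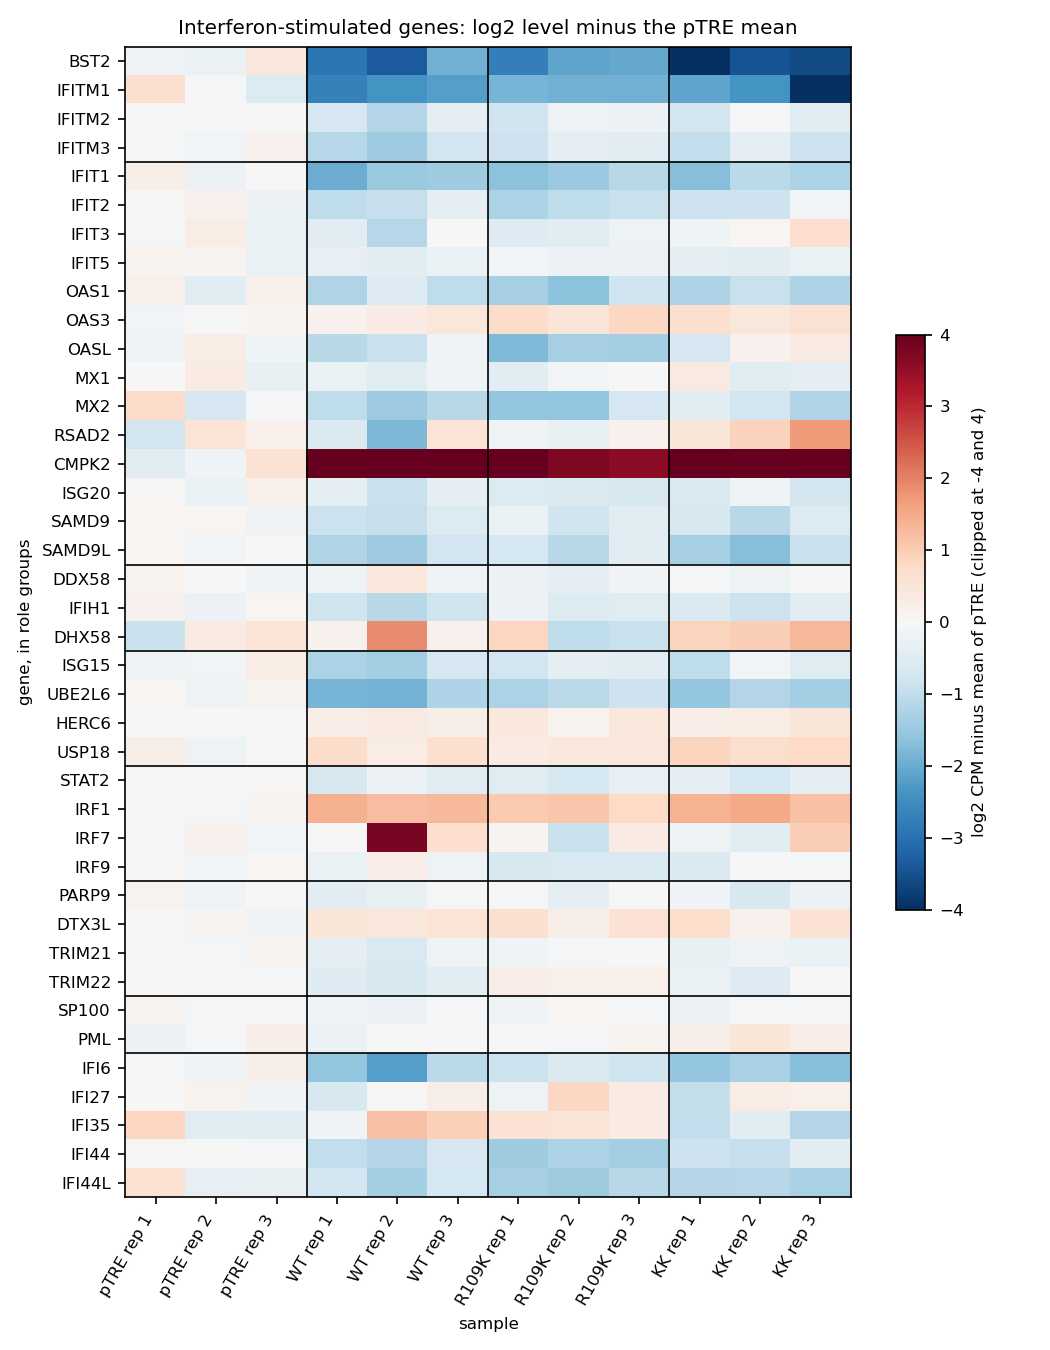
Log2 CPM of the 40 interferon-stimulated genes past the filter (rows, in role groups) in the 12 samples (columns), each minus the gene's pTRE mean, with colour clipped at -4 and 4. BST2 and IFITM1 are darkest blue in the 9 E2F1-line samples, CMPK2 is darkest red, and the isolated red cell of IRF7 is WT replicate 2.

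The separation was complete for the following genes. All 9 E2F1-line samples lay below all 3 pTRE samples for BST2, IFITM1, IFITM2, IFITM3, IFIT1, OAS1, SAMD9, SAMD9L, IFIH1, UBE2L6, STAT2, IFI6, IFI44, and IFI44L, 14 of 40 genes, and 14.6% of all genes tested did so. All 9 lay above pTRE for CMPK2, OAS3, HERC6, USP18, IRF1, and DTX3L, 6 of 40, and 16.1% of all genes did so. The median deviation of the 40 genes from the pTRE mean was between -0.62 and -0.23 on the log2 scale in every E2F1-line sample, and the same median over all genes was between -0.02 and 0.02.

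Among the proteins of the cell surface and of virus entry, all 4 genes lay lower in every E2F1 line. BST2 encodes tetherin, a membrane protein that holds budding virus particles on the cell. Its level was 20.2, 18.6, and 30.5 CPM in the 3 pTRE replicates, 2.99, 2.17, and 5.85 in WT, 3.34, 5.20, and 5.36 in R109K, and 1.21, 1.97, and 1.82 in KK. Every E2F1-line sample lay far below the lowest pTRE sample, and the KK samples lay below all of the WT and R109K samples. The log2 fold change of BST2 was -2.60 ± 0.31 (SE, n = 3 per line) in WT, -3.81 ± 0.33 in KK, and -2.32 ± 0.30 in R109K, which is 6.07-fold, 14-fold, and 5.0-fold lower than pTRE. The gene is on the minus strand of chromosome 19, from 17513748 to 17516439 on GRCh37, and shared no 50-base stretch with another gene.

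The IFITM proteins block the fusion of virus and cell membranes. IFITM1 was the lowest of the called genes of this group in reads, with 29 to 61 in the pTRE samples and 0 to 12 in the E2F1 lines. Its CPM was 2.52, 1.52, and 1.07 in pTRE, 0.178, 0.241, and 0.289 in WT, 0.389, 0.363, and 0.369 in R109K, and 0.311, 0.240, and 0 in KK. No E2F1-line sample reached the lowest pTRE sample, and the log2 fold change was -2.83 ± 0.58 (SE) in WT, -3.16 ± 0.58 in KK, and -2.17 ± 0.52 in R109K. At these low counts the call of IFITM1 in R109K was lost without any single R109K sample, pTRE replicate 1, or pTRE replicate 2 (log2 -2.24 to -1.78), and that in WT without pTRE replicate 1 (log2 -2.44). IFITM3 was 52.9, 50.7, and 62.4 CPM in pTRE, 24.8, 19.9, and 32.1 in WT, 30.8, 42.0, and 41.2 in R109K, and 27.7, 42.1, and 31.2 in KK. It was called in WT alone, at -1.10 ± 0.19, and that difference came to -0.96, under 2-fold, without WT replicate 2. It was -0.72 ± 0.19 in KK and -0.54 ± 0.18 in R109K. IFITM2, which was not called, had means of 24.8 CPM in pTRE and between 15.1 and 18.9 in the E2F1 lines. The 3 genes are neighbours on chromosome 11 and share sequence, as 29.8%, 21.6%, and 15.7% of the 50-base stretches of IFITM1, IFITM2, and IFITM3 occur in another gene, so reads could have been divided among them.

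Of the 15 antiviral enzymes and RNA-binding effectors, 14 were tested. IFIT1, whose protein binds RNA that lacks the host's cap methylation, was lower in all 3 lines. It was 20.4, 15.05, and 17.6 CPM in pTRE, 4.38, 6.18, and 6.47 in WT, 5.61, 6.29, and 8.15 in R109K, and 5.29, 8.31, and 7.22 in KK. The E2F1-line samples were all below pTRE and overlapped one another, with log2 fold changes of -1.65 ± 0.21 (SE), -1.41 ± 0.20, and -1.35 ± 0.20 in WT, R109K, and KK. Its neighbours in the IFIT cluster of chromosome 10 differed less. IFIT2 was 8.72, 9.58, and 7.20 CPM in pTRE, 4.17, 4.42, and 6.54 in WT, 3.47, 4.14, and 4.50 in R109K, and 4.70, 4.71, and 7.86 in KK. A sample of IFIT2 reached the pTRE range in KK, and none did in WT or R109K. The log2 fold change of IFIT2 was -0.74 ± 0.23 in WT, -0.56 ± 0.23 in KK, and -1.08 ± 0.23 in R109K, where it passed the call. That call was lost without R109K replicate 1, pTRE replicate 1, or pTRE replicate 2, at values between -1.06 and -0.98, and IFIT2 was called in WT without WT replicate 3 (log2 -1.003). IFIT3 and IFIT5 were within 1.37-fold of pTRE in all lines.

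The OAS genes encode synthetases that make 2'-5' oligoadenylates, the activator of RNase L, and lie in a cluster on chromosome 12 apart from OASL, which has no such activity. They did not move together. OAS1 was 1.65, 1.03, and 1.65 CPM in pTRE, 0.570, 0.964, and 0.650 in WT, 0.519, 0.3997, and 0.778 in R109K, and 0.554, 0.720, and 0.553 in KK. All E2F1-line samples of OAS1 were below pTRE, by log2 differences of -1.03 ± 0.36 (SE), -1.35 ± 0.36, and -1.25 ± 0.36, and the call was made in R109K, where it was lost in each model that left out a sample of pTRE or R109K (log2 -1.64 to -1.16) and with no filter on low counts (log2 -1.35). OAS1 was called in KK with at least 10 counts in every sample, in the 6-sample model, and without WT replicate 2 (log2 -1.25 to -1.24). OAS3 lay in the opposite direction without a call. It stood at 29.4 ± 2.06 CPM (SD, n = 3) for pTRE and averaged 36.7 ± 3.60 in WT, 47.7 ± 5.73 in R109K, and 44.02 ± 3.20 in KK. OASL was 5.20, 7.14, and 5.11 CPM in pTRE, 2.60, 3.05, and 5.20 in WT, 1.62, 2.25, and 2.17 in R109K, and 3.56, 6.53, and 7.18 in KK. It was called in R109K, at -1.53 ± 0.30, a call lost without R109K replicate 1 (log2 -1.40), and was -0.67 ± 0.29 in WT and -0.02 ± 0.28 in KK, whose samples overlapped those of pTRE.

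CMPK2 was the member with the largest difference from pTRE, and it was higher. It encodes a mitochondrial nucleotide kinase. CPM was 0.661, 0.836, and 1.43 in pTRE, 26.9, 19.4, and 18.9 in WT, 16.2, 13.4, and 12.04 in R109K, and 28.0, 22.4, and 21.0 in KK. The lowest E2F1-line sample was above the highest pTRE sample, and the R109K samples lay below all WT and KK samples. In reads, pTRE samples had 16 to 39 and E2F1-line samples 242 to 810. The log2 fold change was 4.46 ± 0.25 (SE) in WT, 4.59 ± 0.25 in KK, and 3.81 ± 0.25 in R109K, which is 22.04-fold, 24.1-fold, and 14.04-fold higher. RSAD2, which encodes the antiviral enzyme viperin, is transcribed from the other strand of the same locus, and the outermost annotated starts of the 2 genes are 1078 bases apart. Its level stayed under 2 CPM in every sample, at 0.248, 0.722, and 0.551 in pTRE, 0.285, 0.0803, and 0.723 in WT, 0.421, 0.363, and 0.532 in R109K, and 0.692, 0.960, and 1.70 in KK. RSAD2 was not called in any line and overlapped with pTRE in all. Exons of the pair overlap on opposite strands over 8% of CMPK2's exon bases, and whether the counting used strand is not given in the sources used here.

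SAMD9 and SAMD9L, neighbouring genes on chromosome 7 whose proteins restrict poxviruses, were lower in the E2F1 lines. SAMD9L was 12.2, 10.6, and 11.8 CPM in pTRE, 4.95, 4.18, and 6.76 in WT, 7.03, 5.34, and 8.48 in R109K, and 4.57, 3.46, and 6.24 in KK. No sample overlapped with pTRE, and the log2 fold change was -1.10 ± 0.23 (SE) in WT, -1.27 ± 0.23 in KK, and -0.73 ± 0.22 in R109K, which was not called. The WT value came to -0.98 without WT replicate 2. SAMD9, which was not called, had means of 37.5 CPM in pTRE and between 21.96 and 26.7 in the E2F1 lines. ISG20, an exonuclease, and MX1 and MX2, dynamin-like GTPases, were not called in any line. MX1 and MX2 were low, with means of at most 1.46 CPM.

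**Figure D2:**
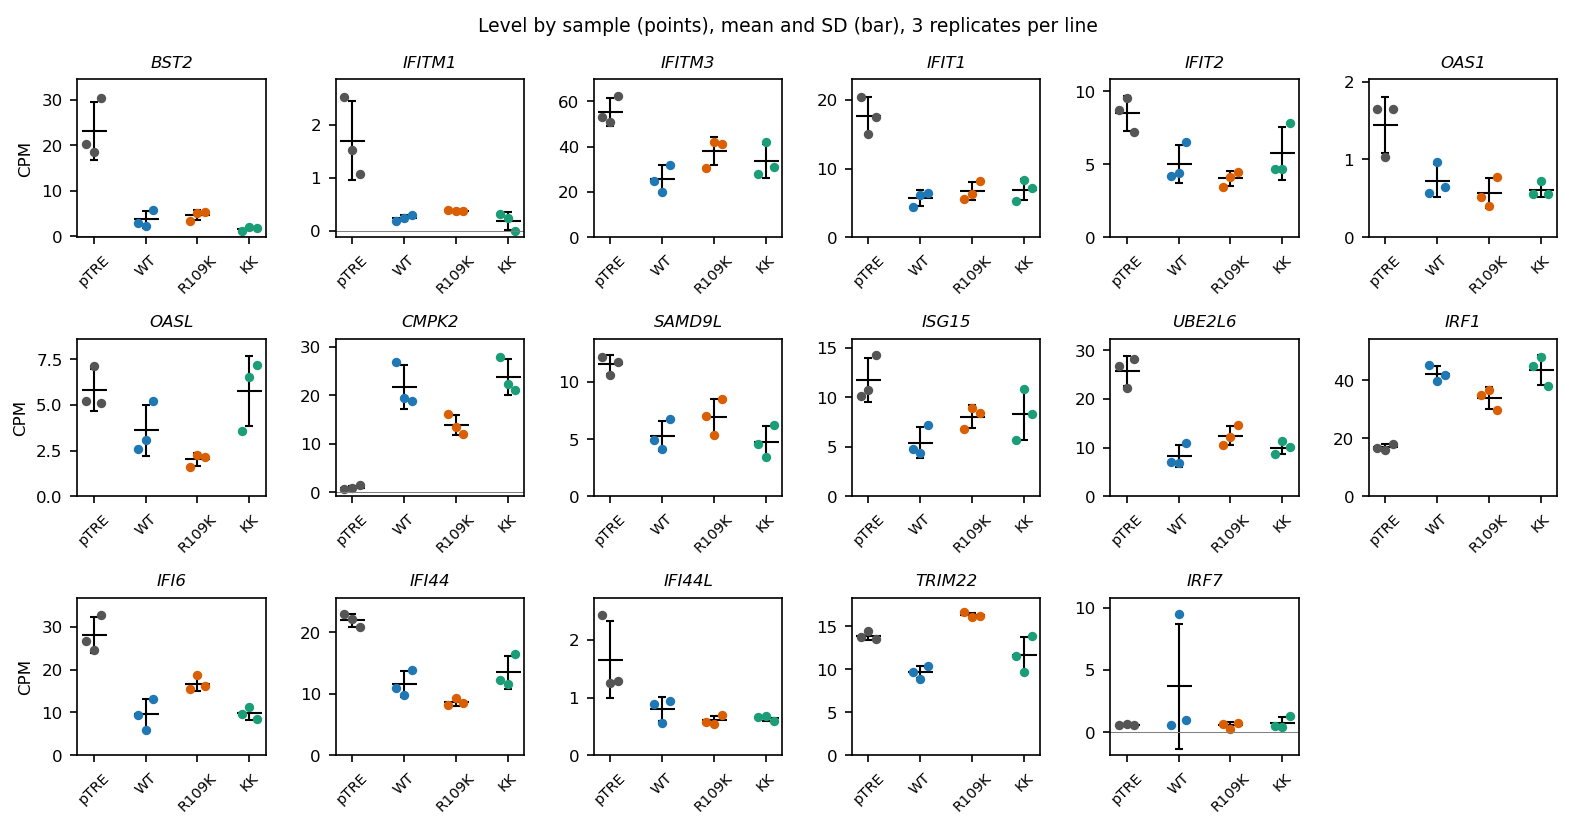
CPM by sample (points) with the mean and SD (bars; n = 3) in pTRE, WT, R109K, and KK for the 15 called genes and for TRIM22 and IRF7. CMPK2 and IRF1 are higher in all E2F1-line samples, BST2, IFITM1, IFIT1, and UBE2L6 are lower in all of them, and the 3 R109K points lie lowest for OASL and highest for TRIM22.

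Of the 5 genes of ISG15 conjugation, 4 were tested, and the modifier and its conjugating enzyme lay lower while the other pair did not. ISG15 encodes the modifier itself and was 10.1, 10.8, and 14.2 CPM in pTRE, 4.74, 4.34, and 7.19 in WT, 6.77, 8.94, and 8.39 in R109K, and 5.67, 10.8, and 8.29 in KK. It was called in WT, at -1.09 ± 0.24 (SE), with -0.51 ± 0.23 in KK and -0.54 ± 0.23 in R109K, and the WT difference came under 2-fold, to between -0.99 and -0.93, without WT replicate 1, WT replicate 2, or pTRE replicate 3. UBE2L6 encodes the E2 enzyme that passes ISG15 on. Its level was 26.9, 22.3, and 28.2 CPM in pTRE, 6.95, 6.91, and 10.9 in WT, 10.6, 12.2, and 14.6 in R109K, and 8.65, 11.3, and 10.0 in KK. The highest E2F1-line sample was well below the lowest of pTRE, and the log2 fold change was -1.63 ± 0.19 in WT, -1.37 ± 0.19 in KK, and -1.05 ± 0.18 in R109K. The last value came to -0.95 without R109K replicate 1 and to -0.98 without pTRE replicate 3. USP18, the protease that removes ISG15 and also restrains the interferon receptor, and HERC6, a ubiquitin ligase of the HERC family, were higher than pTRE in all E2F1-line samples but were not called. USP18 had means of 5.13 CPM in pTRE, 7.70 in WT, 6.73 in R109K, and 8.88 in KK. Shared sequence also touched other genes, as 42.5% of the 50-base stretches of DDX58, 20.1% of IRF9, 16.4% of IFI6, 11.8% of USP18, 8.92% of IFIT2, and 7.67% of TRIM22 occur in another annotated gene. All annotated transcripts were searched, so the other gene need not be among the 25369 genes listed. Exons of DDX58 and IRF9 overlapped no listed gene. For TRIM22, 5.11% of exon bases overlap OR56B1 on the same strand.

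The transcription factors of the set did not share a direction. IRF1, which is itself induced by interferon and activates many of the other genes, was higher in each E2F1 line. It was 16.6, 16.0, and 18.2 CPM in pTRE, 45.3, 39.7, and 41.7 in WT, 35.1, 36.8, and 29.6 in R109K, and 44.9, 48.1, and 38.1 in KK. The log2 fold change of IRF1 was 1.32 ± 0.13 (SE) in WT, 1.36 ± 0.13 in KK, and 1.00 ± 0.13 in R109K, which is 2.00-fold and just under the limit of the call. IRF1 passed it in R109K with DESeq2, with RLE scaling, with no filter on low counts, and with at least 10 counts in every sample. It also passed without R109K replicate 3 or pTRE replicate 3. The log2 values in these models were 1.00 to 1.085. STAT2, part of the complex that binds the response element, was 60.6 ± 1.60 CPM (SD, n = 3) in pTRE and between 42.7 and 44.8 on average in the E2F1 lines, with no overlap and no call. IRF9, the DNA-binding subunit of that complex, had means of 14.5 CPM in pTRE, 14 in WT, 9.32 in R109K, and 12.6 in KK. The WT mean of IRF9 rested on WT replicate 2, at 17.4 CPM, beside 11.9 and 12.6 in the other WT samples. The lowest pTRE sample was 13.3. IRF7, which amplifies interferon production, was decided by 1 library. It was between 0.551 and 0.684 CPM in pTRE and between 0.291 and 1.26 in R109K and KK, whereas the WT replicates had 0.605, 9.48, and 1.01. The log2 fold change in WT was 2.51 ± 0.81 with all samples and 0.41 without WT replicate 2, the sample with most of its reads outside genes. It was not called, but passed the call in DESeq2 (2.57), without the filter on low counts (2.47), and without WT replicate 1 (3.03) or WT replicate 3 (2.97), models that all hold that library.

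Sensors, ligases, and nuclear body proteins held no called gene. DDX58, IFIH1, and DHX58 encode the helicases that detect viral RNA in the cytosol. IFIH1 had means of 7.61 CPM in pTRE, 4.02 in WT, 5.65 in R109K, and 4.88 in KK and was below pTRE in all E2F1-line samples. DDX58 had means between 15.3 and 18.6 CPM in the 4 lines, with overlapping samples. The highest of these means, in WT, rested on WT replicate 2, at 24.3 CPM beside 15.8 and 15.7. DHX58 did not exceed 1.61 CPM in any sample, and that value was also WT replicate 2. PARP9 and DTX3L encode partners of an ADP-ribosyl transferase and ubiquitin ligase complex and are transcribed divergently from overlapping starts 239 bases apart on chromosome 3. DTX3L was 71.3 ± 5.89 CPM (SD, n = 3) in pTRE and between 100.1 and 101 on average in the E2F1 lines, whereas PARP9 was 42.3 ± 4.22 in pTRE and between 33.7 and 38.8. SP100 and PML, the organisers of nuclear bodies, were within 1.25-fold of pTRE in all lines.

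Among the other interferon-induced proteins, IFI6, IFI44, and IFI44L were lower. IFI6, a small membrane protein that opposes cell death, was 26.7, 24.6, and 32.7 CPM in pTRE, 9.44, 5.94, and 13.2 in WT, 15.4, 18.7, and 16.1 in R109K, and 9.55, 11.3, and 8.41 in KK. Its log2 fold change was -1.53 ± 0.22 (SE) in WT, -1.52 ± 0.21 in KK, and -0.74 ± 0.21 in R109K, whose samples lay between those of pTRE and of the other E2F1 lines. IFI44 and IFI44L are related genes side by side on chromosome 1. IFI44 was 22.9, 22.1, and 20.9 CPM in pTRE, 11.01, 9.80, and 13.8 in WT, 8.17, 9.37, and 8.56 in R109K, and 12.2, 11.7, and 16.5 in KK. Here R109K was lowest, at -1.34 ± 0.16, with -0.92 ± 0.16 in WT and -0.70 ± 0.16 in KK. Without WT replicate 3, IFI44 was called in WT too (log2 -1.08). IFI44L was 2.44, 1.25, and 1.29 CPM in pTRE, 0.890, 0.562, and 0.940 in WT, 0.583, 0.545, and 0.696 in R109K, and 0.657, 0.672, and 0.592 in KK. It was called in KK, at -1.36 ± 0.34, and in R109K, at -1.44 ± 0.34, and the values were -0.99 and -1.06 without pTRE replicate 1, the highest sample. The call was also lost without any single KK sample (log2 -1.40 to -1.31) or R109K sample (log2 -1.54 to -1.37). IFI27 and IFI35 were at or under 1.02 CPM in every sample.

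The 4 genes under the filter were OAS2, HERC5, EPSTI1, and XAF1, with at most 6 reads in any sample. OAS2 had 1 read in each pTRE sample and 1 to 6 in the E2F1 lines. EPSTI1 had 1 read over the 3 pTRE samples and 2 over the E2F1 lines. At these counts no difference was detectable.

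Levels were also divided by the kilobases of merged exons of all annotated transcripts. These lengths come from GENCODE and not from the unstated annotation of the counting, and every annotated transcript adds to them, so the order is approximate. In pTRE it was led by IFI6 at 29.9 CPM per kb, followed by BST2 at 21.0, IFITM3 at 19.5, IFITM2 at 15.4, and ISG15 at 13.5. Merged exons came to 2844 bases for IFITM3 and 936 for IFI6, and in undivided CPM IFITM3 was the higher, at 55.3 against 28.0. The pTRE samples of BST2 ranged from 16.9 to 27.7 and those of IFI6 from 26.3 to 35.0, ranges that overlap, although IFI6 was above BST2 within each of the 3 libraries. In pTRE, CMPK2 was at 0.222 CPM per kb, below BST2. It was above BST2 in WT, at 4.96 against 3.33, and in KK, at 5.43 against 1.51, and below it in R109K, at 3.16 against 4.21. In undivided CPM, the R109K mean of CMPK2 was above that of BST2, at 13.9 against 4.63.

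The E2F1 lines were then compared with one another, a contrast that the choice of the list did not use. BST2 is in part an exception, since its E2F1-line values entered the fall that chose it. Its p-values and intervals between these lines are therefore given as a description. By edgeR with Benjamini-Hochberg adjustment over all genes, 0 of the 40 genes were called between KK and WT, between R109K and WT, or between R109K and KK, where 0.00602%, 0.343%, and 0.0902% of all genes were. At an unadjusted p below 0.05 there were 9, 14, and 15 of the 40, and 8.51%, 22.3%, and 12.4% of all genes. DESeq2 called 0, 0, and 2, the last being BST2 and OASL. Genes whose samples did not overlap numbered 4 of 40 between KK and WT, 12 between R109K and WT, and 18 between R109K and KK, and the background was 9.97%, 27.1%, and 21.0% of all genes.

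Between R109K and KK, BST2 and OASL had the smallest p-values of the set. BST2 was 2.80-fold higher in R109K than in KK (log2 1.48 ± 0.34, SE; 95% interval 0.77 to 2.20; adjusted p = 0.0462 in edgeR; higher in all R109K samples), which misses the threshold of 0.01. OASL was 2.85-fold lower in R109K (log2 -1.51 ± 0.30; 95% interval -2.16 to -0.87; adjusted p = 0.0297 in edgeR), again in all samples. DESeq2 gave adjusted p-values of 0.00155 for BST2 and 0.000517 for OASL, and over its other models edgeR gave from 0.0118 to 0.221 and from 0.00632 to 0.131. CMPK2 was 1.72-fold lower in R109K than in KK (log2 -0.78 ± 0.20, adjusted p = 0.0714 in edgeR) and 1.57-fold lower than in WT (log2 -0.65 ± 0.20, adjusted p = 0.0803 in edgeR). IFI44 was lower in R109K than in KK (log2 -0.63 ± 0.16, adjusted p = 0.0714 in edgeR), and IFI6 was higher (log2 0.78 ± 0.21, adjusted p = 0.100 in edgeR). Between R109K and WT, IFI6 passed the call without WT replicate 3 (log2 1.09). E2F1 itself had a log2 difference of -0.18 between R109K and KK and of -0.65 between R109K and WT, and the part of construct level in these values was not tested.

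TRIM22, a ubiquitin ligase with antiviral activity, was the exception at any fold in the main model. It was 13.7, 14.4, and 13.6 CPM in pTRE, 9.69, 8.91, and 10.3 in WT, 16.6, 16.1, and 16.1 in R109K, and 11.6, 9.70, and 13.8 in KK. WT samples were all below pTRE and R109K samples all above it. Between R109K and WT the difference was 1.68-fold (log2 0.75 ± 0.14, SE; adjusted p = 0.00932 in edgeR), under the fold limit of the call. At an adjusted p below 0.01, 0.710% of all genes differed between these lines. Over the alternatives the adjusted p ran from 8.07e-05 with DESeq2 to 0.0516 without R109K replicate 3, with a log2 difference between 0.70 and 0.81. It was below 0.01 with DESeq2, with RLE scaling, with no filter on low counts, and without WT replicate 3. In all other alternatives it was above 0.01.

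Between KK and WT, the largest log2 differences were those of IRF7, at -2.22, IFI35, at -2.02, RSAD2, at 1.46, and BST2, at -1.21 ± 0.34 (SE; 95% interval -1.94 to -0.47; adjusted p = 0.574 in edgeR, also the value for IRF7, IFI35, and RSAD2). BST2 was lower in every KK sample than in every WT sample, and the difference came to -0.68 without WT replicate 3. IFI35 and RSAD2 rested on levels below 2 CPM, and IRF7 on WT replicate 2. For UBE2L6, IFIT1, IRF1, and CMPK2, the 95% intervals of KK minus WT were -0.15 to 0.66, -0.16 to 0.74, -0.21 to 0.31, and -0.29 to 0.54, so differences of 2-fold lay outside them. For IFITM1 the interval ran from -1.85 to 1.18 and did not leave out a 2-fold difference.

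**Figure D3:**
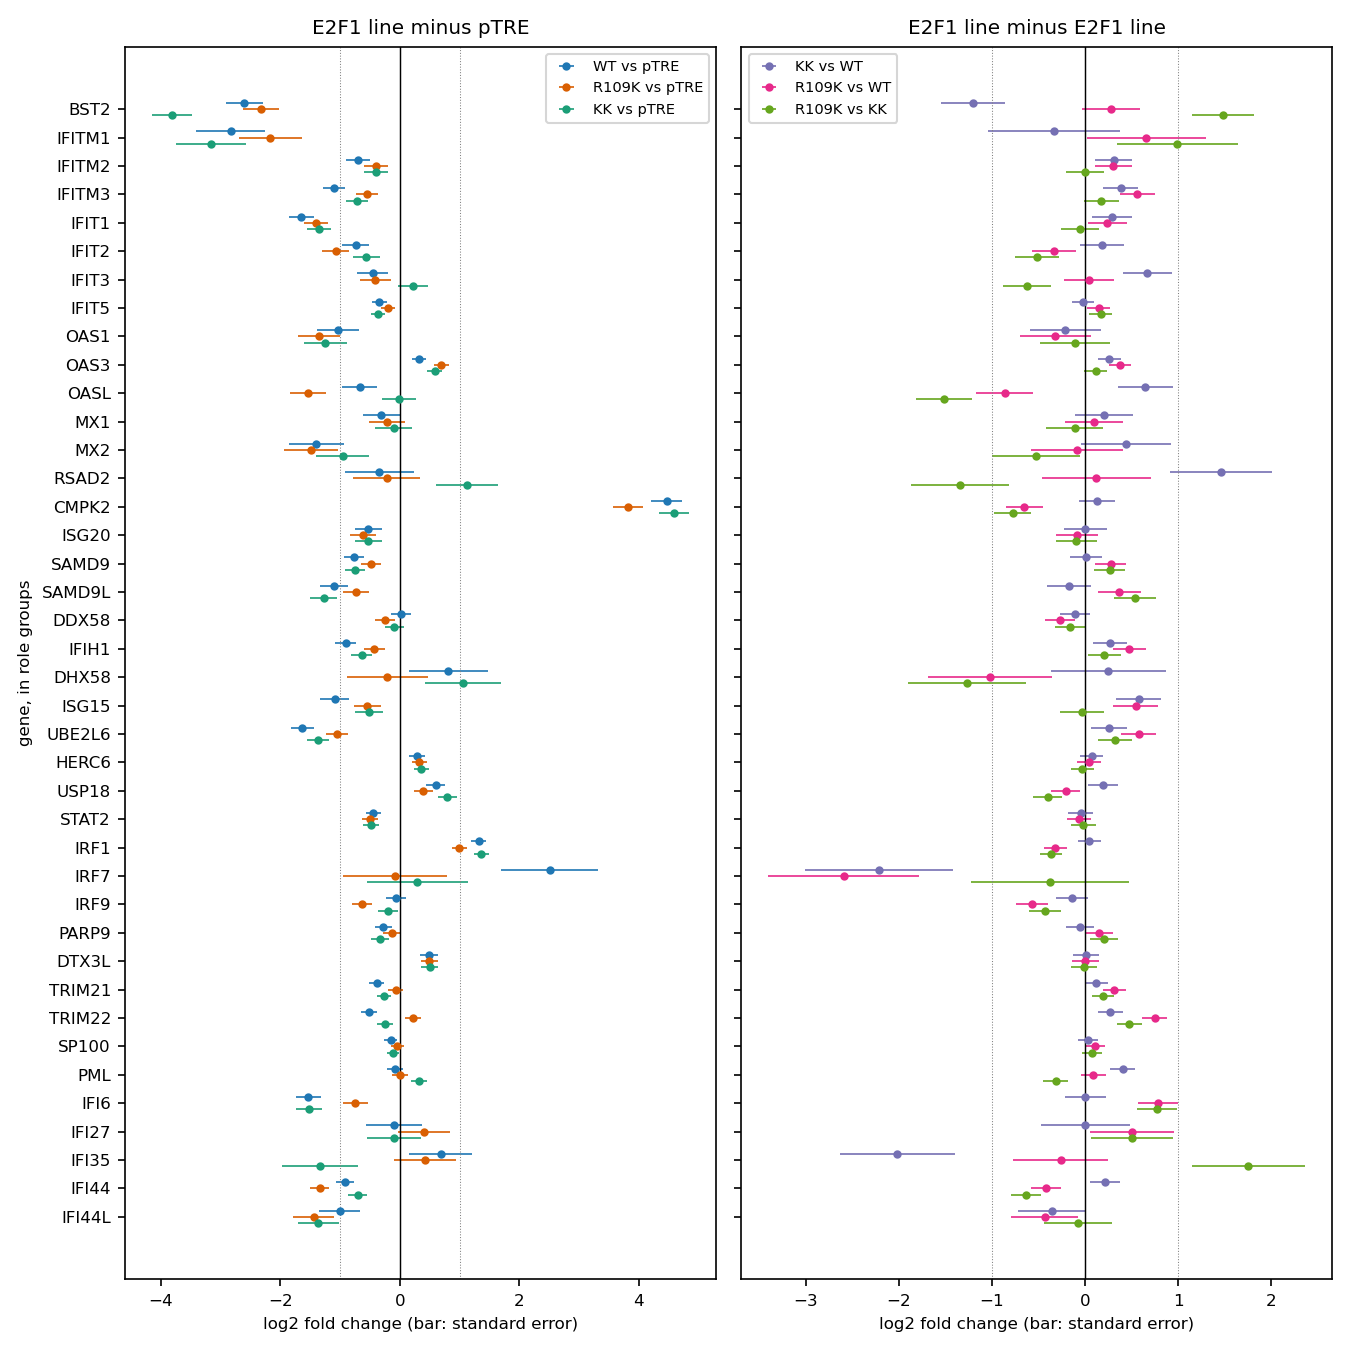
Log2 fold changes (points) and standard errors (bars) of the 40 tested genes, each E2F1 line minus pTRE on the left and E2F1 line minus E2F1 line on the right, with dotted lines at 2-fold. On the left CMPK2 lies between 3.81 and 4.59 and BST2 between -3.81 and -2.32, and on the right most points lie inside the dotted lines.

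To place the set in its pathway, 106 further interferon pathway genes were examined, of which 75 passed the filter. These lists were drawn up with earlier results of these data known, and the genes named are mainly those called. No p against pTRE is therefore quoted for them, and their values are a description. In edgeR, 4 of the 75 were called higher and 4 lower in WT, where 7.89% and 3.93% of all genes were. In KK, 5 were called higher and 3 lower, beside 7.01% and 3.90% of all genes. In R109K, 3 were called higher and 3 lower, beside 4.64% and 2.56%. Nothing is read from these counts. Interferon ligands were near absent, as 20 of 21 were under the filter with at most 7 reads in a sample and 37 summed over all of them. IFNE passed the filter, at no more than 1.04 CPM, the value of WT replicate 2. Of the 6 receptor genes, none was called. IFNAR2, a receptor chain of type I interferon, was lower in R109K by less than 2-fold (log2 -0.80 ± 0.15).

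The kinase JAK2 was called higher in WT (log2 1.63 ± 0.19, SE) and in KK (1.16 ± 0.19), and its value was 0.96 ± 0.19 in R109K. SOCS1, which inhibits JAK signalling, was called lower in all 3 lines. It was 4.13, 4.07, and 5.91 CPM in pTRE, 0.962, 0.562, and 1.19 in WT, 2.11, 1.96, and 1.97 in R109K, and 1.35, 1.39, and 1.30 in KK, with log2 fold changes of -2.31 ± 0.27 in WT, -1.80 ± 0.25 in KK, and -1.22 ± 0.24 in R109K (adjusted p in edgeR at most 0.00147). MB21D1, the DNA sensor cGAS, was called higher in all 3, by log2 values of 1.74 ± 0.15, 1.61 ± 0.15, and 1.09 ± 0.15 in WT, KK, and R109K. Its pTRE samples were between 14.5 and 18.2 CPM and its E2F1-line samples between 32.9 and 65.1. The immunoproteasome subunit PSMB9 was called higher in KK and R109K, by a log2 value of 1.03 ± 0.23 in each, and was 0.58 ± 0.23 in WT.

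Among 33 other interferon-induced genes, 27 were tested. GBP2, a guanylate-binding GTPase, was called lower in WT, KK, and R109K, with log2 fold changes of -2.03, -1.91, and -1.60. So was LGALS3BP, a secreted glycoprotein, with -1.58, -1.502, and -1.32. PARP10, a mono-ADP-ribosyl transferase, was called lower in WT (log2 -1.07 ± 0.15, SE). LAMP3, a lysosomal membrane protein, was called higher in all 3 lines, by log2 values of 1.499, 1.62, and 1.63 in WT, KK, and R109K. SAMHD1, which hydrolyses deoxynucleotides, was called higher in WT and KK, by 1.11 and 1.02. No sample of GBP2, LGALS3BP, or LAMP3 in an E2F1 line overlapped with pTRE. Between E2F1 lines, 0 of the 75 genes were called by edgeR or by DESeq2. In edgeR, 0.00602%, 0.343%, and 0.0902% of all genes were called for KK against WT, R109K against WT, and R109K against KK. At an unadjusted p below 0.05, edgeR gave 6, 15, and 15 of the 75 in that order, beside 8.51%, 22.3%, and 12.4% of all genes.

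**Figure D4:**
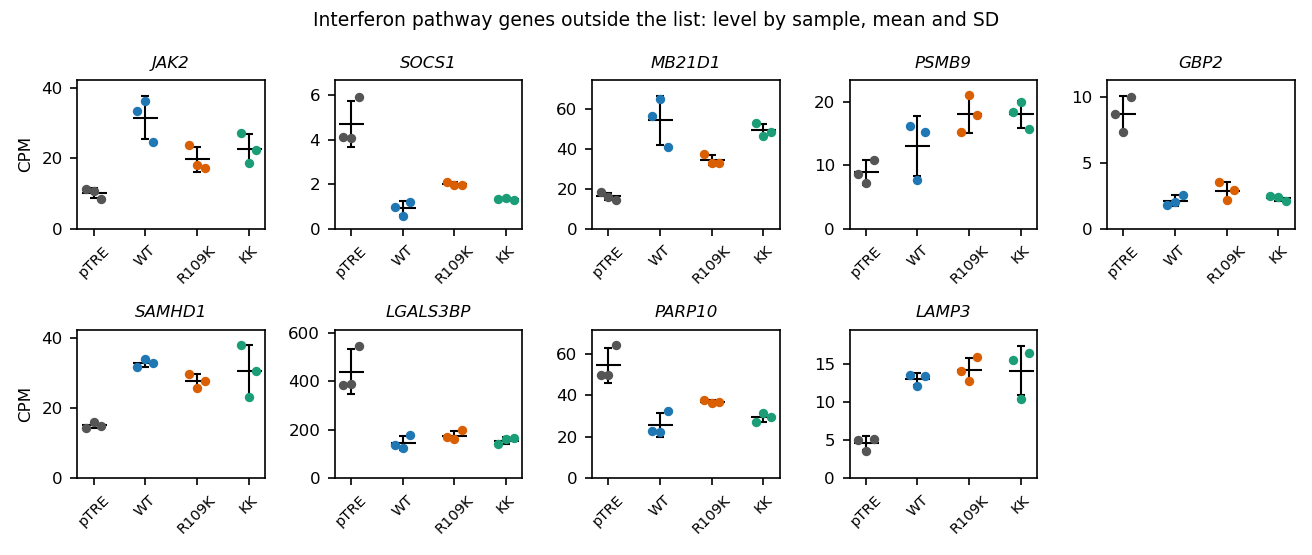
CPM by sample (points) with mean and SD (bars; n = 3) for the 9 interferon pathway genes outside the set that were called in at least 1 line. SOCS1, GBP2, LGALS3BP, and PARP10 are lower in all E2F1-line samples, and JAK2, MB21D1, SAMHD1, and LAMP3 are higher in all of them.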

How the data were processed

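RNA was poly(A)-selected from the 12 U2OS Tet-On samples and made into libraries with a directional kit. The authors deposited 1 count table per sample, whole numbers of reads for each of 25369 genes listed by symbol, together with 5 summary lines for uncounted reads. Per the submitters' processing notes, reads were trimmed with Trim Galore 0.4.3 and aligned to hg19 with STAR 2.5.1, with 2 mismatches allowed in the methods, and the study's own comparisons used DESeq2 1.16.1. The annotation version and the strand setting of the counting are not given in the sources used here. The summary lines were left out of library sizes and tests, and reads outside genes made up 23.6% to 58.7% of each sample's total.

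The main analysis used edgeR 4.0.16 under R 4.3.3. The function filterByExpr, with the 4 lines as groups, left 16625 genes. Libraries were normalised by TMM, and 1 quasi-likelihood model was fitted to all 12 samples, with Benjamini-Hochberg adjustment over all genes tested. A gene was called at an adjusted p below 0.01 and a change of more than 2-fold, as in the study's methods. CPM was computed on TMM library sizes, with a prior count of 2 for log2 values. The common dispersion was 0.0239. The script was tested on simulated data.

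The genes and lists were chosen with earlier results of these data known. BST2 and genes called in any comparison were to be named with every sample's value, the others by role group, and pathway genes where called against pTRE. Proteins were not used here. Alternatives were DESeq2 1.42.0, RLE normalisation, other filters, 6-sample models, a replicate block, leaving out each replicate, edgeR's glmTreat against 2-fold, and an adjusted p below 0.05. Models without WT replicate 2 were added after seeing the data. Gene positions come from GENCODE on GRCh37.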

Additional observations from a re-analysis of the deposited data

Results flagged for a closer look

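TRIM22 differed between R109K and WT by 0.75 on the log2 scale with an adjusted p of 0.00932 in edgeR's quasi-likelihood test, although by less than 2-fold. In most alternatives this adjusted p was above 0.01. Every TRIM22 sample of WT lay below every pTRE sample, and every R109K sample, with a mean of 16.3 CPM, lay above. The crossing of pTRE itself was not tested. Reads outside annotated genes made up 58.7% of WT replicate 2, and no comparison used those reads. The sample itself remained in the main model. IRF7 was at 9.48 CPM in that sample and at 0.605 and 1.01 CPM in the other WT samples. The part of these reads in the IRF7 value was not tested.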

How the results depend on the processing

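No result changed direction past the threshold under any alternative. Tested against a 2-fold change with glmTreat, the calls in the set came to 2 in WT, 3 in KK, and 2 in R109K against pTRE, and those among pathway genes to 4, 2, and 0. For R109K against pTRE, leaving out 1 sample gave 4 to 10 calls in the set, with 4 without R109K replicate 1 and 6 without pTRE replicate 1. The same gave 7 to 13 for WT and 8 to 10 for KK, 0 to 1 for R109K against WT, with 1 without WT replicate 3, and 0 for the other comparisons of E2F1 lines. Without WT replicate 2, WT against pTRE had 7 calls. R109K against KK had 2 calls with DESeq2, 1 with no filter on low counts, and 2 at an adjusted p below 0.05. The causes were not tested, beyond the fewer samples of the models that leave 1 out and the stricter null of glmTreat. Counts under the other alternatives were within 1.5 times those reported.

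The deviations of same-numbered replicates had a mean r of 0.0436 over 18 pairs, from -0.295 to 0.470. For 36 pairs of different numbers the mean r was -0.0235, from -0.383 to 0.314. These ranges overlap and cannot decide whether the numbers pair the samples, which was not tested. With a replicate block, the set had 10 calls in WT, 9 in KK, and 9 in R109K against pTRE, OAS1 being the gene lost, and 0 between E2F1 lines. TRIM22 between R109K and WT then had an adjusted p of 0.0118 in edgeR. RLE scaling moved the median of all genes by at most 0.0103 on the log2 scale. Genes with few reads, such as IFITM1, OAS1, IFI44L, IRF7, and IFI35, limited the precision.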
